A study of Mus musculus with 27 samples.

Results

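The comparison described here set mouse pancreatic islets 2 days after the end of a drug course that holds Myc active against islets still on that course at 21 days. It contrasted 6 of the 27 arrays of the series, 3 at 2 days off drug and 3 at 21 days on drug, taken by their titles. It covered 8251 genes, each read by whichever of its probe sets was brightest on average across the series. The test took its estimate of the spread from all 27 arrays, which also include 3 each at 2 h and 4 h after an injection. At 2 days off, mice had daily tamoxifen for 21 days and were killed 2 days after the last dose. At 21 days, mice were killed at the end of the daily course. Untreated mice, mice killed 8 h or 24 h after a 4-hydroxytamoxifen injection, and mice 4 or 6 days off drug, 3 arrays each, served to place the levels. Every mouse of the series, untreated ones included, carried the MycER and BclXL transgenes, which an insulin promoter drives in beta cells. No group without MycER or with vehicle injections was used here, and the sources used here give no ages. The labels do not say whether the 3 samples of a group were separate mice. The p-values therefore set a change against the spread between samples within the groups of the series, which need not be that between mice.

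MycER is a fusion of Myc with a hormone-binding part of the estrogen receptor, which is active only while tamoxifen or its active form, 4-hydroxytamoxifen, is bound. Withdrawal of the drug therefore switches the fusion protein off, while its mRNA need not change. Myc pairs with Max on the E-box CACGTG and is known for raising genes of ribosome building, protein synthesis, nucleotide synthesis and mitochondria, and for driving cells into division. BclXL, the product of Bcl2l1, blocks mitochondrial cell death, so that beta cells with active Myc expand instead of dying.

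The islet label fitted the hormone genes. The log2 level of Ins2, an insulin gene, was 13.68, 13.51 and 13.74 at 2 days off, against 13.75, 13.72 and 13.70 at 21 days. Iapp, the amyloid hormone that beta cells secrete with insulin, stood at 12.58, 12.54 and 12.78 at 2 days off, against 12.57, 12.46 and 12.71 at 21 days. Levels throughout are log2 values from RMA, which corrects background, evens out arrays and summarises each probe set, so they rank the samples for a gene and not genes against each other. Array medians lay between 6.95 and 7.01 at 2 days off and between 6.97 and 7.0 at 21 days. Across probe sets, which are not independent replicates, pairs of arrays had a Pearson r of 0.971 to 0.987 at 2 days off and 0.986 to 0.991 at 21 days.

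Several readings of the samples themselves differed between or within the groups. For the Gapdh control, which has a probe set at each end of the transcript, the 3′ end read higher than the 5′ end, a reading of RNA quality and amplification, by 4.29, 3.24 and 3.09 on the log2 scale at 2 days off, against 4.81, 4.92 and 4.77 at 21 days, with no overlap. The same excess of the actin control was 2.54, 3.04 and 2.47 at 2 days off, against 2.12, 2.79 and 2.27 at 21 days, with overlap. Of the 19 acinar marker genes measured, which stand for the enzyme-secreting tissue around islets, the mean level was 6.80, 9.76 and 6.89 at 2 days off, against 7.28, 7.70 and 7.82 at 21 days. The mean of the 57 leukocyte markers was 7.24, 7.76 and 6.80 at 2 days off, against 6.93, 7.01 and 6.85 at 21 days. Replicate 2 at 2 days off thus stood above the other 5 arrays in both marker means. Since these are bulk samples, fewer cells of a type and less RNA per cell cannot be told apart.

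**Figure D1:**
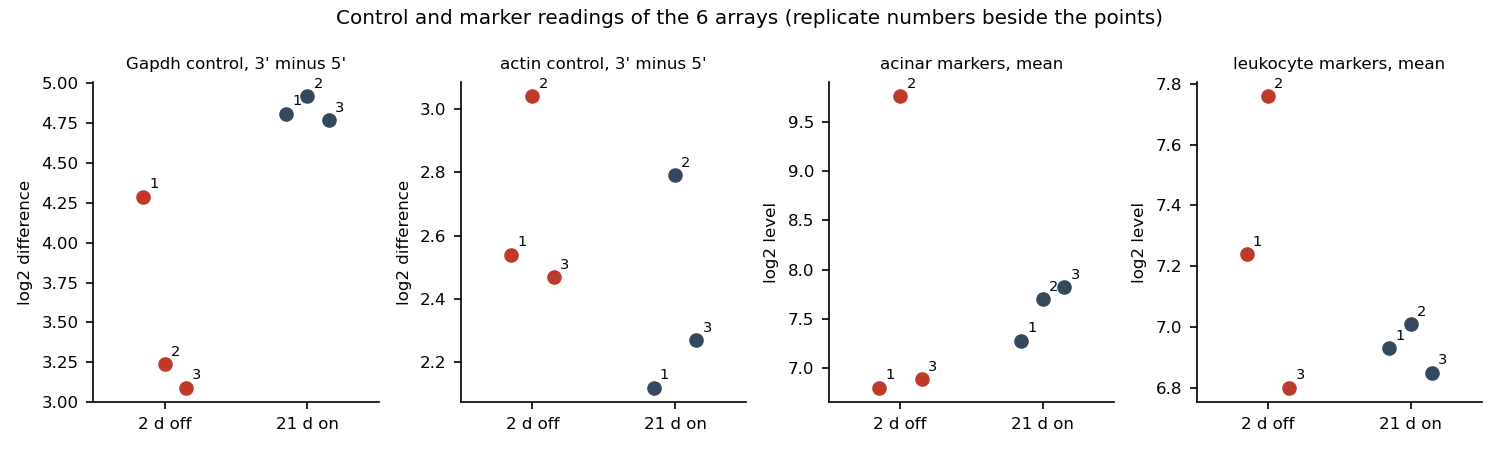
Each point is one array, with its replicate number, at 2 days off drug (left, red) or 21 days on drug (right, dark); the vertical axes are log2 differences for the Gapdh and actin control signals and mean log2 levels for the marker lists. The Gapdh excess lies below 4.30 in every array at 2 days off and above 4.70 in every array at 21 days, and replicate 2 at 2 days off has an acinar marker mean of 9.76.

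Few genes passed the test 2 days after withdrawal. Of 8251 genes, 14 passed limma's test at an adjusted p under 0.05, which is 0.17%. Of these, 13 (0.158%) rose at 2 days off and 1 (0.0121%) fell. At an unadjusted p under 0.05 there were 1366 genes (16.6%), 636 higher (7.71%) and 730 lower (8.85%). In 681 genes (8.25%) every array at 2 days off lay above every array at 21 days, and in 1192 genes (14.4%) every one lay below. The median change of all genes was -0.05 and 42.1% of genes had a change above 0.

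The genes that rose included 3 aminoacyl-tRNA synthetases, 2 proteins of the mitochondrial ribosome, a subunit each of the respiratory chain, the proteasome and cohesin, and 2 proteins that sense amino acids and energy. The rises spanned 1.53-fold to 2.46-fold, and adjusted p-values lay between 0.0334 and 0.0479. In all 14 genes the arrays of the groups did not overlap. A fit of only the 6 arrays compared called 0 genes (1219 at an unadjusted p under 0.05), with a lowest adjusted p of 0.249. In the fit over all arrays the calls depended on single arrays: limma called 0 genes without replicate 2 or replicate 3 at 2 days off or without replicate 1 or replicate 2 at 21 days, 67 without replicate 1 at 2 days off and 47 without replicate 3 at 21 days. Quantile normalization of the deposited values called 31 genes, of which 80.6% were higher, against 92.9% as reported. With the Gapdh excess as a covariate 0 genes passed, the lowest adjusted p was 0.1, and the 13 rises measured 0.58 to 1.17 on the log2 scale; with the acinar and leukocyte marker means as covariates 0 passed, the lowest adjusted p was 0.0555, and the rises measured 0.62 to 1.27.

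**Figure D2:**
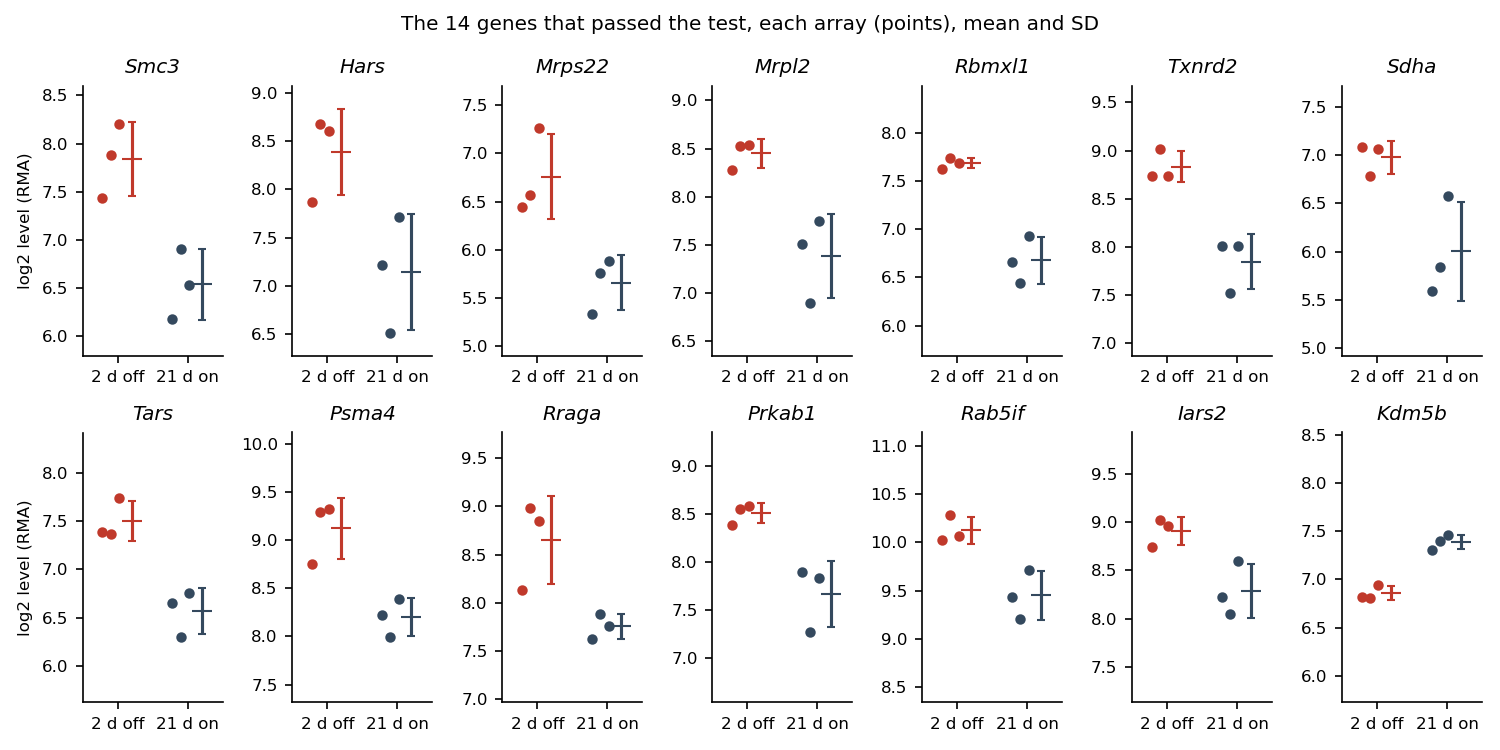
Log2 level of the 14 genes that passed the test in each array (points), with mean and SD, at 2 days off drug (left, red) and 21 days on drug (right, dark); all panels span the same log2 range. The groups do not overlap in any panel, and Kdm5b is the one gene lower at 2 days off.

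Among the synthetases, which load amino acids onto tRNAs, Hars (histidine, cytosolic; chromosome 18, 36766528 to 36783205 in GRCm38.p6) had levels of 7.87, 8.68 and 8.61 at 2 days off, against 7.22, 6.51 and 7.71 at 21 days. It rose 2.36-fold, or 1.24 on the log2 scale (SE 0.23, adjusted p = 0.0334). Its lowest array at 2 days off stood just above its highest at 21 days. Tars (threonine, cytosolic; chromosome 15, 11383663 to 11399658) had 7.39, 7.37 and 7.74 at 2 days off, against 6.65, 6.30 and 6.75 at 21 days, a rise of 0.93 (SE 0.18, adjusted p = 0.0395). Iars2, which loads isoleucine inside mitochondria (chromosome 1, 185286642 to 185329419), had 8.74, 9.02 and 8.96 at 2 days off, against 8.22, 8.05 and 8.60 at 21 days, a rise of 0.62 (SE 0.12, adjusted p = 0.0411). The 3 synthetases differed in where they stood before the drug. In untreated islets Tars averaged 7.49 ± 0.19, close to its 2-day mean, whereas Hars averaged 7.17 ± 0.23 and Iars2 8.38 ± 0.13 (SD, n = 3 each), close to their 21-day means.

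Mitochondrial genes gave 4 further rises. Mrps22, of the small subunit of the mitochondrial ribosome (chromosome 9, 98588730 to 98601679), had 6.44, 6.57 and 7.26 at 2 days off, against 5.34, 5.76 and 5.88 at 21 days, and rose 2.14-fold (log2 1.1, SE 0.22, adjusted p = 0.0451). Mrpl2, of the large subunit (chromosome 17, 46646172 to 46650132), had 8.28, 8.53 and 8.54 at 2 days off, against 7.51, 6.9 and 7.75 at 21 days, and rose 2.09-fold (log2 1.06, SE 0.20, adjusted p = 0.0348). A second, dimmer probe set of Mrpl2 disagreed, with a change of -0.18 (SE 0.11, adjusted p = 0.416). Sdha, the flavoprotein of succinate dehydrogenase, which links the citric acid cycle to the respiratory chain (chromosome 13, 74322255 to 74350240), had 7.09, 6.78 and 7.06 at 2 days off, against 5.59, 5.84 and 6.58 at 21 days, a rise of 0.97 (SE 0.20, adjusted p = 0.0451). Txnrd2, the thioredoxin reductase of mitochondria (chromosome 16, 18426417 to 18479073), had 8.74, 9.02 and 8.74 at 2 days off, against 8.01, 7.52 and 8.01 at 21 days, a rise of 0.99 (SE 0.18, adjusted p = 0.0334). All 4 were lower still in untreated islets or about level with 21 days, at 5.14 ± 0.40 for Mrps22, 7.30 ± 0.10 for Mrpl2, 5.36 ± 0.29 for Sdha and 7.39 ± 0.23 for Txnrd2 (SD, n = 3 each). The bacterial control probe sets, for which the mouse has no target, averaged 3.59 to 7.1 over the 6 arrays, with the second highest at 5.78. The 21-day means of Mrps22 (5.66), Sdha (6.00), Smc3 (6.54), Tars (6.57) and Rbmxl1 (6.68), and the 2-day means of Mrps22 (6.76), Kdm5b (6.86) and Sdha (6.98), lie within that range. No detection calls were used, so these levels are not shown to be above background and the folds of these 6 genes are as measured, not exact.

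The other rises came from protein turnover, nutrient sensing and the chromosomes. Psma4, an alpha-ring subunit of the proteasome (chromosome 9, 54950781 to 54958034), had 8.75, 9.29 and 9.32 at 2 days off, against 8.22, 7.99 and 8.39 at 21 days, a rise of 0.92 (SE 0.17, adjusted p = 0.0334). Rraga, a Rag GTPase that reports amino acids to mTORC1 at the lysosome (chromosome 4, 86575673 to 86577285), had 8.13, 8.98 and 8.85 at 2 days off, against 7.62, 7.88 and 7.76 at 21 days, a rise of 0.90 (SE 0.18, adjusted p = 0.0479). Prkab1, a beta subunit of the energy sensor AMPK (chromosome 5, 116013586 to 116024503), had 8.39, 8.55 and 8.58 at 2 days off, against 7.90, 7.28 and 7.84 at 21 days, a rise of 0.83 (SE 0.16, adjusted p = 0.0395). These 3 had untreated means of 8.13 ± 0.11, 7.31 ± 0.27 and 7.59 ± 0.21 (SD, n = 3 each), below every array at 2 days off.

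Smc3 had the largest measured change of the 13. This core subunit of cohesin, the ring that holds sister chromatids together and forms chromatin loops (chromosome 19, 53600396 to 53645831), had 7.44, 7.88 and 8.20 at 2 days off, against 6.18, 6.91 and 6.53 at 21 days, and rose 2.46-fold (log2 1.30, SE 0.24, adjusted p = 0.0334). Rbmxl1, an RNA-binding gene copied from Rbmx (chromosome 8, 78505269 to 78508928), had 7.63, 7.74 and 7.69 at 2 days off, against 6.66, 6.44 and 6.93 at 21 days, and rose 2.01-fold (log2 1.01, SE 0.17, adjusted p = 0.0334). Which of the near-identical genes its probes read is uncertain. Rab5if, named for its interaction with Rab5 (chromosome 2, 156863122 to 156873563), had 10.02, 10.28 and 10.07 at 2 days off, against 9.43, 9.21 and 9.71 at 21 days, a rise of 0.67 (SE 0.14, adjusted p = 0.0451). Unlike Smc3, whose untreated mean was 6.07 ± 0.43, Rab5if had an untreated mean of 9.96 ± 0.14 (SD, n = 3 each), near its level at 2 days off.

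Kdm5b was the gene that fell. It encodes a demethylase that takes methyl groups off lysine 4 of histone H3, a mark of active promoters (chromosome 1, 134560178 to 134632878). Its levels were 6.82, 6.81 and 6.94 at 2 days off, against 7.31, 7.40 and 7.46 at 21 days, 1.45-fold lower (log2 -0.53, SE 0.09, adjusted p = 0.0334). The 2-day arrays lay close to the untreated mean of 6.78 ± 0.10 (SD, n = 3). Its change kept a value between -0.58 and -0.48 in all settings tried except the Gapdh covariate, where it was -0.42.

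For 5 further genes a probe set other than the brightest one passed, and all 5 pointed upward. Usp15, a deubiquitinase, gave the lowest adjusted p of the comparison at a probe set averaging 7.54 ± 0.25 at 2 days off and 6.43 ± 0.04 at 21 days (SD, n = 3 each), a change of 1.11 (SE 0.16, adjusted p = 0.0106), whereas its brighter probe set changed by -0.08 (SE 0.18, adjusted p = 0.835). Usp34, another deubiquitinase, had 1.12 (adjusted p = 0.0334) at one probe set and 0.63 (adjusted p = 0.0641) at the brighter one. Nsun2, an RNA methyltransferase, had 1.01 (adjusted p = 0.0334), against 0.15 at the brightest of its probe sets and 0.60 (adjusted p = 0.106) at the next. Srsf2, a splicing factor, had 0.86 (adjusted p = 0.0334), against 0.07 at the brighter one. Cct3, a subunit of the chaperonin that folds actin and tubulin, had 1.20 (adjusted p = 0.0448), against -0.01 at the brightest and 0.58 (adjusted p = 0.217) at another. Only in Usp34 did the brightest probe set move by more than 0.5 in the same direction, so these genes are uncertain and are not among the 14.

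The 14 genes next to Kdm5b by the smallest p on the lower side did not pass the test and are given by value. Cidea, a lipid-droplet protein of the CIDE family (chromosome 18, 67343564 to 67367794), had levels of 8.40, 7.38 and 7.60 at 2 days off, against 8.43, 8.99 and 9.39 at 21 days, a change of -1.14 (SE 0.24, adjusted p = 0.0542). Its first array at 2 days off was within 0.03 of the lowest at 21 days, and the untreated mean was 6.34 ± 0.02 (SD, n = 3). Foxo3, a forkhead factor that restrains growth, had 8.82, 8.01 and 8.38 at 2 days off, against 9.23, 9.10 and 9.20 at 21 days, a change of -0.77 (SE 0.17, adjusted p = 0.0706). Sox4, a transcription factor of endocrine development, had 8.97, 8.70 and 8.47 at 2 days off, against 10.22, 10.36 and 9.09 at 21 days, a change of -1.18 (SE 0.29, adjusted p = 0.0886), and its dimmer probe set changed by -0.33. Ank3, which anchors membrane proteins to the cytoskeleton, changed by -0.91 (SE 0.22, adjusted p = 0.0845), with -0.52 at its other probe set. Foxo3, Sox4 and Ank3 had untreated means of 7.58 ± 0.25, 8.27 ± 0.32 and 8.18 ± 0.21 (SD, n = 3 each), so their 2-day means lay between the untreated and the 21-day means.

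Ddit4, an inhibitor of mTORC1, had levels of 9.25, 9.15 and 8.69 at 2 days off, against 9.96, 10.21 and 10.09 at 21 days, a change of -1.06 (SE 0.27, adjusted p = 0.103), while the untreated mean was 9.91 ± 0.22 (SD, n = 3), near the 21-day level. The others of this set changed by -0.73 to -0.36, with adjusted p between 0.0845 and 0.108. They were Uox (urate oxidase), Acot1 (an acyl-CoA thioesterase), Gcgr (the glucagon receptor), Tenm2, Csn3 (kappa-casein), Furin (a prohormone-cleaving protease), Timd2, Slc27a5 and Ccr4 (a chemokine receptor). Their untreated means varied too, from near the 21-day mean in Slc27a5 (5.86 ± 0.08) and Tenm2 (7.33 ± 0.14) and above it in Furin (9.62 ± 0.11) to near the 2-day mean in Uox (5.71 ± 0.06; SD, n = 3 each). Other probe sets of Timd2 disagreed with its fall, with changes of 0.01 and 0.07. On the higher side, Ipo4, a nuclear import receptor, and Sec23ip, which acts where vesicles leave the endoplasmic reticulum, came closest without passing. Their changes were 0.90 (SE 0.19) and 0.59 (SE 0.12), both with adjusted p = 0.0542, and the other Ipo4 probe sets changed by -0.10 and -0.06.

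The E-box CACGTG, which reads the same on both strands, was looked for in RefSeq promoter windows of GRCm38.p6, from 250 bases before a gene's start to 50 after it. It occurred in windows of 3 of the 12 risen genes that have one (25%) and in 0 of 1 for the fallen gene, against 753 of 6572 array genes with a window (11.5%). A match is a description of the letters and not of binding. The 250 bases before the start are shown for the 3 named genes with the greatest positive change and the 3 with the greatest negative change, whether or not they passed, and for Kdm5b, added after its values were seen. Hars, Cidea and genes without a window were left out, and CACGTG is in capitals. The other matches are shown as shorter stretches, Psma4 with its match 140 bases before a start at 54950859, which lies 78 bases inside the gene as given above, and Tars with its match beginning at base 20 after it. Distances are from the transcript start that the window was built on, which can differ from the gene's first base. The Mrpl2 match begins 131 bases before the earliest of the 3 starts in the window table, at 46646221, which lies 49 bases inside the gene as given above.
Smc3 (chr19:53600146-53600395, plus strand): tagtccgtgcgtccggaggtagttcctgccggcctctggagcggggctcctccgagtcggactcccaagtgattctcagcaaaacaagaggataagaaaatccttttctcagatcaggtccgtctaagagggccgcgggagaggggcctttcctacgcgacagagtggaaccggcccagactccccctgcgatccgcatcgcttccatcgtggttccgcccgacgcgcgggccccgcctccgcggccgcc
Mrps22 (chr9:98601680-98601929, minus strand): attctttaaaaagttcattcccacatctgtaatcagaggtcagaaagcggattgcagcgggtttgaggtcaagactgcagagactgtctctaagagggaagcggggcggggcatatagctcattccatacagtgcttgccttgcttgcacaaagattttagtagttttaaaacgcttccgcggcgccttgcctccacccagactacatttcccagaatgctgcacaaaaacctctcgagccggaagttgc
Mrpl2 (chr17:46645971-46646220, plus strand): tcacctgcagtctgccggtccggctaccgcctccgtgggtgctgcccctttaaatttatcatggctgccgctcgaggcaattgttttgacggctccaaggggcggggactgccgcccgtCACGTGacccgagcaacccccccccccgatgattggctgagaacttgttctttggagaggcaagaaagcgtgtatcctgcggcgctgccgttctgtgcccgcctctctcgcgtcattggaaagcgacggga
Psma4 (chr9:54950692-54950751, plus strand): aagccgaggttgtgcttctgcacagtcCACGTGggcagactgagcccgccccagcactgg
Tars (chr15:11399622-11399651, minus strand): tccgcctgtggcCACGTGgcgcacgcgcag
Sox4 (chr13:28953700-28953949, minus strand): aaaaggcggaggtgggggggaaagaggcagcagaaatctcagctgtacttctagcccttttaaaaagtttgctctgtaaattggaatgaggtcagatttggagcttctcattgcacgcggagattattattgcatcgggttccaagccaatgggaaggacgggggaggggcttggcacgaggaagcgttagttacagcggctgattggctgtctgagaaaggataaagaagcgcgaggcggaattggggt
Ddit4 (chr10:59951771-59952020, minus strand): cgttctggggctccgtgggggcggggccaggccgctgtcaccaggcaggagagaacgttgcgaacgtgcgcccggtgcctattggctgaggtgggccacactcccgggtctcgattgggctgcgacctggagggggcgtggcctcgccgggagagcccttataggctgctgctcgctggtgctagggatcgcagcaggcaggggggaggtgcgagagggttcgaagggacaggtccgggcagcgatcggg
Foxo3 (chr10:42276696-42276945, minus strand): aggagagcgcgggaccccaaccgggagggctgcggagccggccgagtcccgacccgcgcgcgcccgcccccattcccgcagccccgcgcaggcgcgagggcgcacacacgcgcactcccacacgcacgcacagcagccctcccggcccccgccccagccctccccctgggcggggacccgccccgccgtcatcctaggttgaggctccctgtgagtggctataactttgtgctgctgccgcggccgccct
Kdm5b (chr1:134559928-134560177, plus strand): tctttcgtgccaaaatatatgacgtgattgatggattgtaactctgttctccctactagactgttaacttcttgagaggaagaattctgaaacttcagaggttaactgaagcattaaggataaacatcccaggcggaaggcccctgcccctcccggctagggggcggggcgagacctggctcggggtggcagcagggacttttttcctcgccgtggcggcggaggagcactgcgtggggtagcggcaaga

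The levels after longer withdrawal and before the drug are set beside these. Of 8251 genes, limma called 0 between 4 and 2 days off (476, or 5.77%, at an unadjusted p under 0.05), 1354 (16.4%) between 21 days and untreated, and 1915 (23.2%) between 2 days off and untreated. These comparisons share arrays with the one described here. Smc3 stayed at 7.82 ± 0.38 at 4 days off and 7.35 ± 0.13 at 6 days off (SD, n = 3 each). Mrps22 was at 6.66 ± 0.21 and then 6.04 ± 0.27, and Sdha at 6.68 ± 0.19 and then 6.01 ± 0.17, so that by 6 days off both means were within 0.5 of the 21-day mean. Kdm5b had 7.12 ± 0.11 at 4 days off and 6.98 ± 0.15 at 6 days off, between its 2-day and 21-day means. Comparisons that share no array with this one were those of the early times after an injection. Of 158 genes called at 8 h against untreated (1.91%), 1 was among the 14, Rbmxl1, which is 0.633% of the first set and 7.14% of the second, and of 130 genes called at 24 h (1.58%), 0 were.

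**Figure D3:**
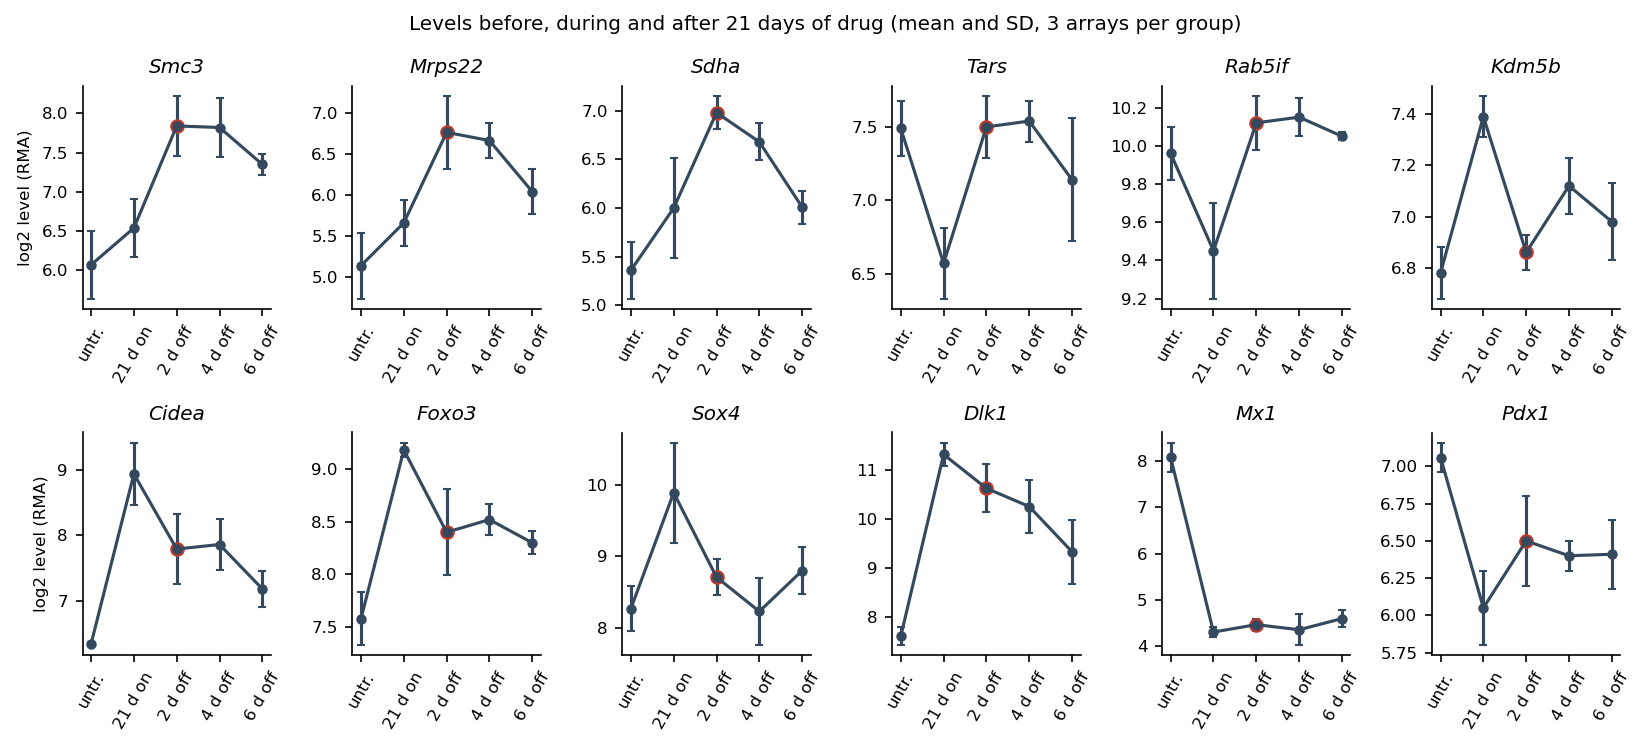
Mean log2 level with SD (3 arrays per group) for 12 genes in untreated islets, at 21 days on drug and at 2, 4 and 6 days off, in order of time; the point at 2 days off is ringed in red and each panel has its own log2 axis. Smc3, Mrps22 and Sdha are highest at 2 or 4 days off, Tars, Rab5if and Kdm5b at 2 days off lie near the untreated level, and Mx1 stays near 4 from 21 days on.

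Some genes of the panel that differed strongly between 21 days and untreated were still far from their untreated level 2 days after withdrawal. Mx1, an antiviral gene of the interferon response, had 4.33, 4.58 and 4.5 at 2 days off, against 4.21, 4.41 and 4.31 at 21 days, and 8.07 ± 0.32 in untreated islets (SD, n = 3). Its change was 0.16 with a 95% interval of -0.70 to 1.02, which takes its spread from all 9 groups. On that interval a return by as much as its upper bound cannot be set aside. The Mx1 levels on and off drug lie within the bacterial control range of 3.59 to 7.1, so they are not shown to be above background. Papss2, an enzyme that activates sulfate, changed by 0.15 (interval -0.52 to 0.82). Its levels were 4.83 to 6.07 at 2 days off, also within that range, against 8.62 ± 0.76 in untreated islets. Cox6b2, a cytochrome c oxidase subunit best known from testis, had 9.05, 8.93 and 9.53 at 2 days off, against 9.02, 9.17 and 9.11 at 21 days, and 6.01 ± 0.23 untreated. Its change was 0.07 (interval -0.41 to 0.55). Dimmer Cox6b2 probe sets, with 2-day means of 6.03 and 5.70, changed by -0.13 and -0.28. Bzw2, a translation regulator, had a change of 0.00 (interval -0.34 to 0.34), with 11.12, 10.62 and 10.92 at 2 days off, against 9.63 ± 0.41 in untreated islets. Dlk1, an imprinted Notch-family ligand of immature cells, had 11.02, 10.07 and 10.76 at 2 days off, against 11.39, 11.49 and 11.04 at 21 days, with no overlap, a change of -0.69 (interval -1.29 to -0.09, adjusted p = 0.259), and 7.61 ± 0.18 in untreated islets.

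The Myc machinery itself did not pass the test. Endogenous Myc had 3.25, 5.52 and 3.93 at 2 days off, against 3.52, 3.81 and 3.52 at 21 days, with replicate 2 at 2 days off high. Its change was 0.62 (SE 0.49, adjusted p = 0.525). Mxi1, a Max partner that opposes Myc, changed by 0.46 (SE 0.24, adjusted p = 0.347), with a lowest array of 8.25 at 2 days off against 6.57 ± 0.44 in untreated islets. Other Max partners of this kind had changes below 0. Mxd4 changed by -0.99 (SE 0.42, adjusted p = 0.26) and Mnt by -0.28 (SE 0.15, adjusted p = 0.35), both without overlap. Mxd3 and Mxd1 changed by -0.12 and -0.10. The brightest Esr1 probe set had 10.84, 11.47 and 11.77 at 2 days off, against 11.09, 10.01 and 10.30 at 21 days, a change of 0.89 (SE 0.28, adjusted p = 0.172). Its other 3 probe sets changed by -0.33 to -0.05, and the sources used here do not say whether any of them reads the MycER transgene. Of 16 genes of the Myc, Max and Mad network, 0 passed, 1 was higher and 1 lower at an unadjusted p under 0.05, and the median change was -0.08. Bcl2l1 changed by -0.02 (interval -0.24 to 0.20).

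Gene lists place these genes among known Myc targets and beta cell genes. Of 64 ribosome biogenesis genes, 0 passed the test. At an unadjusted p under 0.05, 14 were higher (21.9%) and 0 lower, against 7.71% and 8.85% of all genes. In this list 51 of 64 had a change above 0 and the median was 0.18, against -0.05 over all genes. Arrays of the groups did not overlap in 23 with higher levels and 1 with lower, against 8.25% and 14.4% of all genes. Ebna1bp2, needed for large-subunit assembly, had the smallest p, with 6.86, 6.82 and 6.97 at 2 days off, against 5.99, 5.79 and 6.32 at 21 days (change 0.85, adjusted p = 0.0958). The other list members named from here on for a small p or a large change were chosen after their values were seen. Ncl, nucleolin, had 11.70, 11.10 and 11.40 at 2 days off, against 10.49, 10.71 and 11.36 at 21 days (change 0.55, adjusted p = 0.311), and Nolc1 a change of 0.16. The 31 cytosolic ribosomal proteins had a median change of -0.01, with 1 higher and 2 lower at an unadjusted p under 0.05.

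Of 60 translation factors and tRNA synthetases, 2 passed, Hars and Tars. At an unadjusted p under 0.05, 19 were higher (31.7%, against 7.71% of all genes) and 1 lower, with a median of 0.16. The initiation factor subunits Eif3d and Eif3c changed by 0.52 and 0.61, with adjusted p of 0.124 and 0.133. Among 37 genes of nucleotide, polyamine and serine synthesis 0 passed, and the median was 0.21. Of these, 6 were higher (16.2%, against 7.71% of all genes) and 3 lower (8.11%, near the 8.85% of all genes). In this group Adss, an enzyme of AMP synthesis, had 8.23, 8.87 and 8.76 at 2 days off, against 7.62, 7.30 and 7.80 at 21 days (change 1.05, adjusted p = 0.0845). Odc1, the ornithine decarboxylase of polyamine synthesis and a classic Myc target, changed by 0.24 (interval -0.19 to 0.68), and Psat1, of serine synthesis, by 0.62 (interval 0.05 to 1.19).

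The mitochondrial lists had medians of 0.11 and -0.09, against -0.05 over all genes. Of 61 genes of the mitochondrial ribosome and import, 2 passed, Mrps22 and Mrpl2, and the median was 0.11. At an unadjusted p under 0.05, 8 were higher (13.1%, against 7.71% of all genes) and 1 lower (1.64%, against 8.85%). Mrpl4, also of the large subunit, had 9.03, 9.15 and 9.18 at 2 days off, against 8.49, 7.95 and 8.58 at 21 days (change 0.78, adjusted p = 0.0542). Of 69 oxidative phosphorylation genes, 1 passed, Sdha. At an unadjusted p under 0.05, 7 were higher (10.1%, against 7.71% of all genes) and 1 lower (1.45%, against 8.85%). A change above 0 was measured in 28 of the 69, near the 42.1% of all genes, and the median was -0.09. The complex I subunits Ndufs1, Ndufv1 and Ndufb6 changed by 0.64, 0.47 and 0.54, with adjusted p between 0.0734 and 0.142. Phb2, a prohibitin of the inner mitochondrial membrane, changed by 0.38 (interval 0.01 to 0.76).

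Lists of protein folding and breakdown varied. Of 36 proteasome genes, 1 passed, Psma4, and 11 were higher (30.6%, against 7.71% of all genes) and 0 lower at an unadjusted p under 0.05, with a median of 0.22. Psmb5, a catalytic subunit, had 8.07, 8.84 and 8.82 at 2 days off, against 7.0, 7.53 and 7.79 at 21 days (change 1.14, adjusted p = 0.124). Of 55 genes of the unfolded protein response, 0 passed, 14 were higher (25.5%) and 1 lower, with a median of 0.18. Xbp1, the transcription factor of that response, had 8.12, 8.89 and 9.27 at 2 days off, against 7.99, 7.72 and 8.02 at 21 days (change 0.85, SE 0.24, adjusted p = 0.124), and its untreated mean was 9.77 ± 0.04 (SD, n = 3). Hspa5, the main chaperone of the endoplasmic reticulum, changed by 0.65 (SE 0.30, adjusted p = 0.302). The 40 cytosolic and mitochondrial chaperones had 4 higher (10%), 1 lower (2.5%) and a median of 0.08. The 51 lysosome and autophagy genes had 3 higher (5.88%), 1 lower (1.96%) and a median of 0.09. In both lists the higher share was near the 7.71% of all genes. The lower share was below the 8.85% of all genes, and the median was above -0.05.

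**Figure D4:**
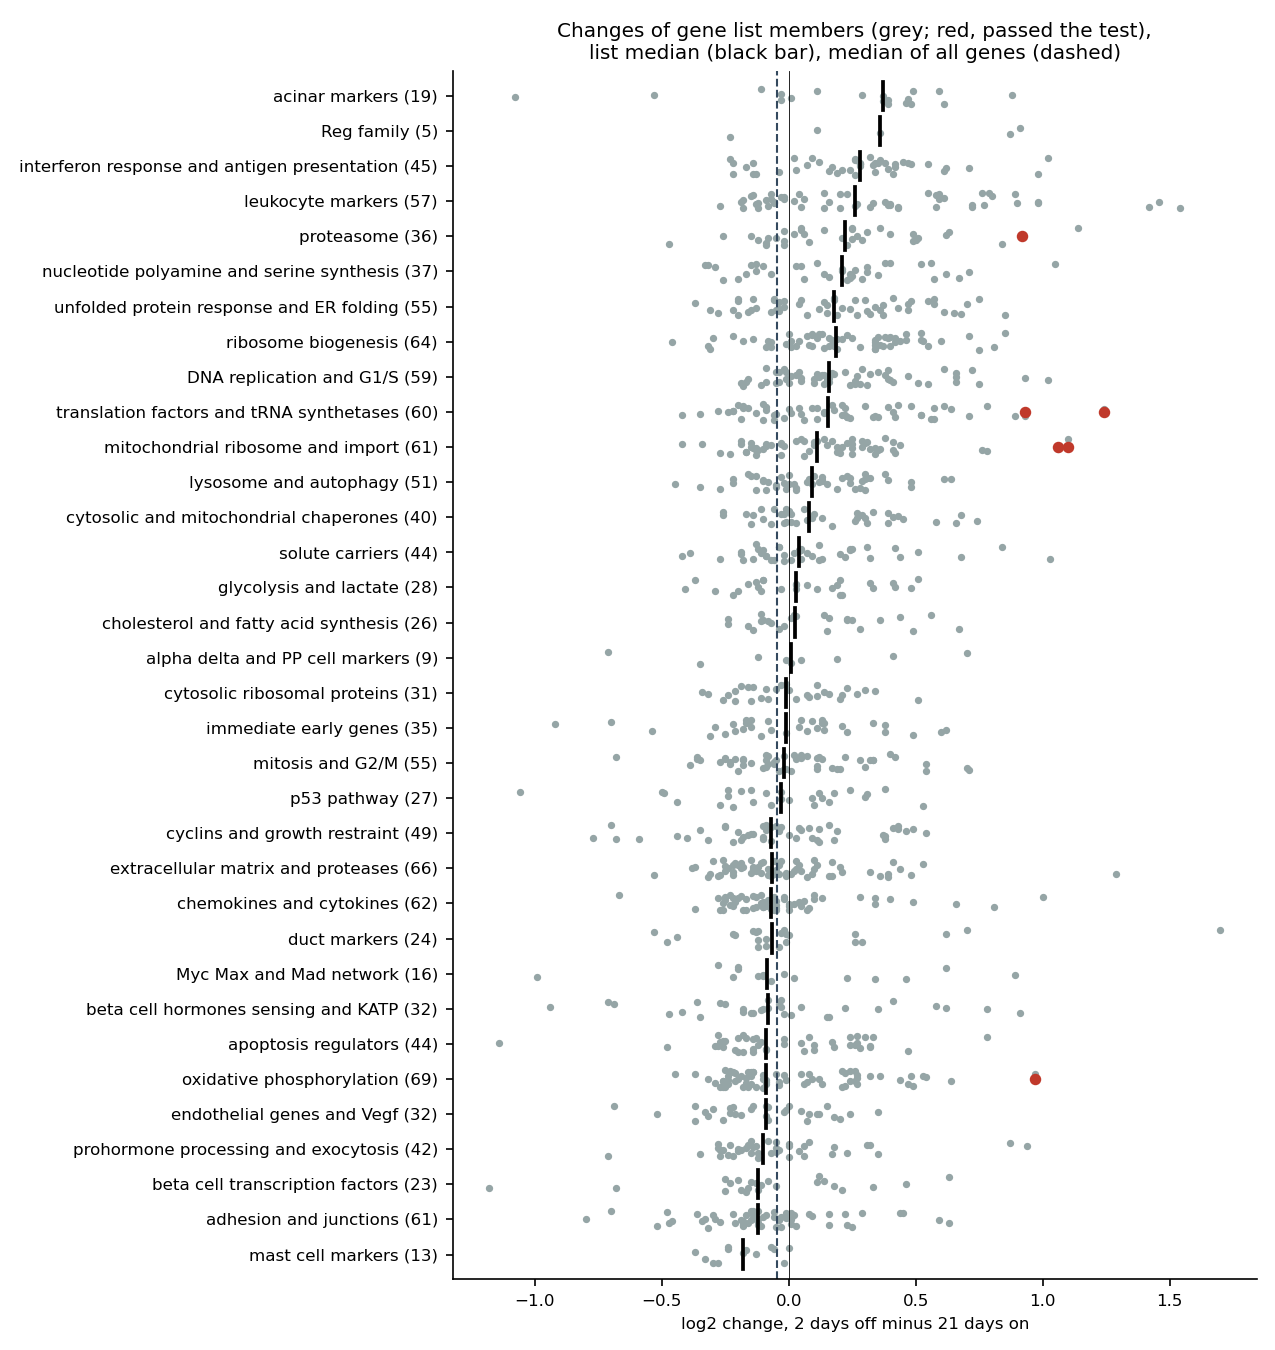
Log2 change (2 days off minus 21 days on) of the members of 34 gene lists, one grey point per gene with the number measured in brackets; red points passed the test, black bars are list medians and the dashed line is the median of all genes at -0.05. The highest medians are those of the acinar (0.37), Reg (0.36), interferon (0.28) and leukocyte (0.26) lists, which fall without replicate 2 at 2 days off. The ribosome biogenesis, proteasome and unfolded protein response medians lie at 0.18 to 0.22, and the beta cell transcription factor, adhesion and mast cell medians at -0.12 or below.

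No gene of the cell cycle lists passed the test, and replicate 2 at 2 days off was the highest array for several of them. Mki67, which marks dividing cells, had 6.79, 8.52 and 5.63 at 2 days off, against 6.69, 6.91 and 7.57 at 21 days, with the highest and the lowest array both at 2 days off. Its change was -0.08 with an interval of -1.62 to 1.47, too wide to show a change of a few fold in either direction. Top2a, the topoisomerase of mitosis, had 6.85, 7.99 and 5.73 at 2 days off, against 6.39, 6.86 and 7.24 at 21 days (change 0.03). Replicate 2 at 2 days off, the array with high acinar and leukocyte marker means, was the highest of the 6 for both genes. The part of those cells in this was not tested. Of 59 DNA replication genes, 0 passed. At an unadjusted p under 0.05, 5 were higher (8.47%, near the 7.71% of all genes) and 0 lower, against 8.85% of all genes. The median was 0.16. That median rested on replicate 2 at 2 days off, without which it was -0.01, with 3 higher and 2 lower. In the same list Mcm4, a subunit of the replicative helicase, had 6.25, 8.83 and 6.71 at 2 days off, against 6.34, 5.95 and 6.43 at 21 days. Cdca7, a Myc-responsive gene of dividing cells, had 8.11, 8.47 and 7.89 at 2 days off, against 7.07, 7.16 and 7.46 at 21 days, without overlap (change 0.93, SE 0.26, adjusted p = 0.124).

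Of 55 mitosis genes, 0 passed, and 3 were higher (5.45%, against 7.71% of all genes) and 2 lower (3.64%, against 8.85%). The median was -0.02, or -0.22 without replicate 2 at 2 days off, with 2 higher and 5 lower. Stmn1, a tubulin-binding protein, had 9.97, 10.30 and 9.17 at 2 days off, against 9.78, 9.80 and 9.80 at 21 days, and 8.16 ± 0.28 in untreated islets (SD, n = 3). Pcna, the sliding clamp of replication, changed by 0.55 (interval -0.22 to 1.32). Ccnd1, Ccnd2, Cdkn1a and Cdkn1b, which start or hold back the cycle, changed by 0.16, -0.35, 0.00 and -0.18, with adjusted p of 0.44 or more. Other probe sets of Ccnd1, Cdkn1a and Cdkn1b changed by -0.22, -0.40 and -0.35. The 49 cyclins and growth restraint genes had 1 higher (2.04%) and 6 lower (12.2%) at an unadjusted p under 0.05 and a median of -0.07. Txnip, an arrestin that limits glucose uptake, had 9.30, 8.96 and 9.33 at 2 days off, against 9.90, 9.78 and 9.95 at 21 days (change -0.68, adjusted p = 0.133). The 27 p53 pathway genes had 2 higher (7.41%), 1 lower (3.7%) and a median of -0.03.

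Beta cell genes gave no call. The insulin gene Ins2 changed by -0.08 (interval -0.31 to 0.15) and Iapp by 0.05 (interval -0.31 to 0.41). Pdx1, the master regulator of beta cells, had 6.19, 6.79 and 6.53 at 2 days off, against 6.34, 5.91 and 5.89 at 21 days, with overlap (change 0.46, SE 0.20, adjusted p = 0.271). Its untreated mean was 7.06 ± 0.10 (SD, n = 3). Slc2a2, the glucose transporter Glut2, had 9.18, 8.89 and 10.36 at 2 days off, against 9.04, 8.66 and 8.98 at 21 days, where replicate 3 at 2 days off alone reached the untreated mean of 10.52 less its SD of 0.52. Abcc8, the sulfonylurea receptor of the ATP-sensitive potassium channel, had 9.97, 10.83 and 11.13 at 2 days off, against 9.97, 9.50 and 10.13 at 21 days (change 0.78, adjusted p = 0.234). Th, tyrosine hydroxylase, changed by 0.62 (SE 0.29, adjusted p = 0.298), with 8.46, 9.16 and 8.73 at 2 days off, each below the untreated mean of 10.39 ± 0.29. Pcsk1, a proinsulin convertase, and Gad1 changed by 0.31 and -0.03, with intervals of -0.46 to 1.09 and -1.04 to 0.98.

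Of 23 beta cell transcription factors 2 were higher and 4 lower (17.4%, against 8.85% of all genes) at an unadjusted p under 0.05. Their median was -0.12. The 32 hormone, sensing and channel genes had 2 higher, 6 lower (18.8%) and a median of -0.08. The 42 prohormone processing and exocytosis genes had 4 higher, 3 lower and a median of -0.10. In the last of these, Sytl4, a granule-docking protein, had 10.51, 10.42 and 11.13 at 2 days off, against 9.95, 9.59 and 9.92 at 21 days (change 0.87, adjusted p = 0.0924). The 9 alpha, delta and PP cell markers had a median of 0.01, with 5 changes above 0 and 4 below. They ran from -0.71 in Sst, somatostatin (SE 0.47, adjusted p = 0.447), to 0.70 in Slc38a5 (SE 0.36, adjusted p = 0.347). The other delta cell markers, Hhex and Rbp4, changed by 0.01 and -0.12.

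Adhesion, vessel and cell death genes had medians from -0.12 to -0.09, against -0.05 over all genes. Of 61 adhesion genes, 0 passed. At an unadjusted p under 0.05, 1 was higher (1.64%, against 7.71% of all genes) and 7 lower (11.5%, against 8.85%). In 13 of the 61 the arrays did not overlap on the lower side and in 1 on the higher side, against 14.4% and 8.25% of all genes. Cdh1, E-cadherin, had 8.42, 8.20 and 8.39 at 2 days off, against 8.70, 8.85 and 8.55 at 21 days (change -0.36, SE 0.12, adjusted p = 0.178). Ctnnb1, its partner beta-catenin, had a change of 0.63 (adjusted p = 0.236). Of 32 endothelial genes 0 were higher and 6 lower (18.8%, against 8.85% of all genes), with a median of -0.09. In this list 10 had a change above 0 and 21 below. Tie1 and Pecam1, markers of endothelial cells, changed by -0.69 and -0.33 (adjusted p = 0.252 and 0.206). Vegfa, the vessel growth factor, changed by 0.24 (interval -0.33 to 0.81) and its receptor Kdr by 0.15 (interval -0.14 to 0.44). Of 44 apoptosis regulators, 3 were higher and 9 lower (20.5%, against 8.85% of all genes), with a median of -0.09. Apaf1, the core of the apoptosome, had 6.75, 6.16 and 6.78 at 2 days off, against 5.70, 5.77 and 5.88 at 21 days (change 0.78, adjusted p = 0.0886).

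Immune lists were mixed. Of 45 interferon and antigen presentation genes, 6 were higher (13.3%, against 7.71% of all genes) and 0 lower at an unadjusted p under 0.05. The median was 0.28. Without replicate 2 at 2 days off this list had 1 higher and 2 lower and a median of 0.05. Psmb9, an immunoproteasome subunit, had 7.67, 9.34 and 7.98 at 2 days off, against 7.43, 7.42 and 7.07 at 21 days (change 1.02, adjusted p = 0.248), with replicate 2 highest. The 57 leukocyte markers had 1 higher and 0 lower and a median of 0.26, or -0.02 without that array. Ptprc, the pan-leukocyte antigen CD45, had 6.46, 8.56 and 6.05 at 2 days off, against 6.11, 6.13 and 6.51 at 21 days. Other defining leukocyte markers did not all follow it. Cd3e, Cd79a, Csf1r and Itgam read 7.69, 8.06, 8.25 and 5.68 in replicate 2 at 2 days off. Their changes were -0.15, -0.09, 0.27 and -0.02. The part of leukocytes in the interferon list was not tested. Of 13 mast cell markers 0 were higher and 5 lower (38.5%, against 8.85% of all genes), with a median of -0.18. The lower ones included Cma1, Mcpt2, Tpsab1 and Fcer1a. Their 2-day means of 6.77, 4.13, 6.00 and 3.53 lie below the highest bacterial control at 7.1. The defining markers Cpa3, Kit and Tpsb2 changed by -0.13, -0.07 and -0.24. The 62 chemokines and cytokines had 0 higher, 6 lower (9.68%) and a median of -0.07. Il1b changed by 0.10 (interval -1.11 to 1.32).

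The 19 acinar markers had 0 higher and 0 lower, with a median of 0.37, or -0.61 without replicate 2 at 2 days off, and the 5 Reg family genes likewise with a median of 0.36, or -0.39 without that array. Reg2, a secreted protein of acinar and regenerating tissue, had 6.59, 10.83 and 6.63 at 2 days off, against 6.81, 7.50 and 7.01 at 21 days, and Reg3b changed by 0.11. The 24 duct markers had 0 higher, 1 lower and a median of -0.07. The remaining lists had 3.03% to 11.5% higher and 3.85% to 11.4% lower at an unadjusted p under 0.05, against 7.71% and 8.85% of all genes. The 66 matrix and protease genes had 2 higher, 5 lower and a median of -0.07, and the 35 immediate early genes had 2 higher, 4 lower and a median of -0.01. The 28 glycolysis genes had 1 higher, 2 lower and a median of 0.03, the 26 cholesterol and fatty acid synthesis genes 3 higher, 1 lower and 0.02, and the 44 solute carriers 5 higher, 2 lower and 0.04. Across the 34 lists, which share some members, 6 of the 14 called genes were members.

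**Figure D5:**
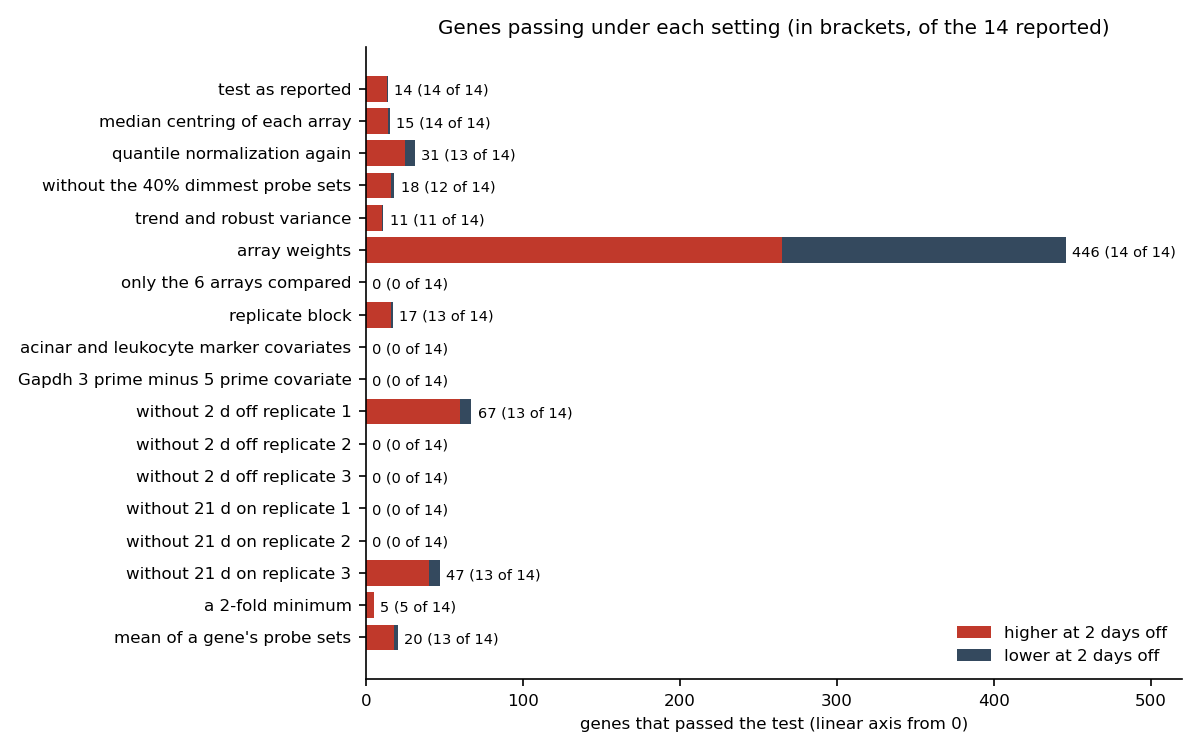
Genes passing the test under the reported and the other settings, split into higher (red) and lower (dark) at 2 days off, with the total and, in brackets, how many of the reported 14 passed. The count is 14 as reported, 0 in 7 settings and 446 with array weights.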

How the data were processed

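The data are 27 Affymetrix mouse arrays, 1 per sample, of RNA from laser-captured islets, amplified linearly before labelling with biotin, per the labels. The deposited values are log2 levels that, per the submitters' processing notes, RMA produced; the sources used here give neither version nor settings. They were used without further scaling. Of 12488 probe sets, 66 controls were left out and 12422 tested; 10833 have 1 gene symbol, 396 several and 1193 none, and 2073 of 8251 genes have more than 1 probe set. Positions are from the RefSeq gene table of GRCm38.p6, in which 10817 probe sets matched.

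limma 3.58.1 in R 4.3.3 (lmFit, eBayes) was fitted to all 27 arrays as 9 group means, leaving 18 residual degrees of freedom; tests were two-sided, with Benjamini-Hochberg adjustment over 12422 probe sets and a threshold of 0.05. Permutations of 3 against 3 arrays cannot give p under 0.1 and were not used. The method was tested on simulated data. Intervals are 95%, and the number of arrays limits the precision.

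The comparison, the panel of 43 genes (40 analysed here) and the 34 lists (1377 of 1743 symbols analysed here) were chosen with earlier results of these data known. Named were up to 15 genes each way among called genes without overlap, filled by the smallest p, called list members, and the panel; other list members were picked after their values were seen. The alternatives were other normalizations, filters, variance models, covariates, probe set rules and leaving out each array.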

Additional observations from a re-analysis of the deposited data

How the results depend on the processing

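Against 14 genes called, limma called 31 after quantile normalization, 446 with array weights (265 higher and 181 lower, in a weight estimate that stopped before convergence), 5 with a 2-fold minimum, and 0 with only the 6 arrays compared (1219 at an unadjusted p under 0.05), with the acinar and leukocyte marker covariates (1302) and with the Gapdh covariate (1034). Leaving out 1 array gave 0 to 67 (886 to 1605 at an unadjusted p). Of the 6 called list members, these settings gave 8, 79, 3, 0, 0 and 0, and leaving out 1 array gave 0 to 14. Median centring (15), no dim probe sets (18), trend and robust variance (11), averaging the probe sets of a gene (20) and every probe set (19) stayed within 1.5 times. Deviations of same-numbered arrays correlated at -0.0422, 0.0482 and 0.063, which shows no sign of pairing by replicate number but cannot exclude it. With the replicate number as a block 17 genes passed, 13 of them among the 14. In each setting, the called genes that were tested kept their direction, all 14 except in the dim filter, which tested 12. The causes were not tested. Levels near those of the bacterial controls limit what dim probe sets can show.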
